A study of Mus musculus with 24 samples.

Results

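The genes described here encode the machinery that fuses secretory and synaptic vesicles with their target membrane. They comprise the syntaxins, the SNAP-25 family, the VAMP (synaptobrevin) genes, the syntaxin-binding proteins, the synaptotagmins, 2 complexins, the synapsins and the SV2 vesicle proteins. Members were all genes whose symbol in the array annotation starts with Syt, Stx, Stxbp, Vamp, Snap or Cplx and a number, or is Syn1 to Syn3 or an Sv2 symbol, leaving out Cplx3 and Cplx4. The choice used names and no measured value. It gave 56 of 18193 genes, each read from 1 probe set, the one brightest on average across the 24 arrays. By family these were 16 synaptotagmins, 14 syntaxins, 7 VAMP genes, 6 syntaxin-binding proteins, 4 SNAP-25 relatives, 3 synapsins, 3 SV2 genes, 2 complexins and Snap91, which carries a SNAP name but encodes a clathrin assembly protein.

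RNA was taken from the retina and the pineal gland of male and female C57BL/6J mice, aged 2 months, kept in cycles of 12 h light and 12 h dark. All mice had floxed alleles of Neurod1, a bHLH transcription factor of photoreceptors and pinealocytes. Conditional knockouts (cKO, NeuroD1flox/flox/Crx-cre+/-) also carried Cre driven by the promoter of Crx, which is active in photoreceptors and pinealocytes. Which cells of either tissue lost Neurod1 was not measured here. Controls (NeuroD1flox/flox::Crx-cre-/-) lacked Cre. Tissue was taken by day (ZT6, 6 h after lights on) or at night (ZT20, in dim red light), giving 8 groups of tissue, genotype and time with 3 pools of 6 organs each. A p-value here thus measures the spread between pools. In such mixed tissue, fewer cells of a type and less RNA per cell cannot be told apart.

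As background, a vesicle fuses when the VAMP on its membrane zips together with syntaxin and SNAP-25 on the target membrane into a SNARE complex. Sec1/Munc18 proteins, of which Stxbp2 and Stxbp3 are members, act with the syntaxins, and complexins clamp and assist the assembled complex. Synaptotagmins such as Syt1 and Syt2 sense calcium and trigger release, others such as Syt4 and Syt11 do not bind calcium in the same way, synapsins tether vesicles in a reserve pool, and SV2 proteins are glycoproteins of the vesicle membrane. Photoreceptors and bipolar cells of the retina release glutamate continuously at ribbon synapses, and their terminals use syntaxin 3. Pinealocytes are related to photoreceptors, hold synaptic-like vesicles and ribbons, and make melatonin at night.

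Neurod1 itself was read first. In cKO pineal gland at ZT6 the 3 pools had 84.51, 36.74 and 33.85 units of normalised signal, against 4785, 4868 and 4668 in controls. At ZT20 the cKO pools had 28.65, 2001 and 864 units, against 3186, 3964 and 2978, so pools 2 and 3 kept 59.3% and 25.6% of the control mean. Retina cKO pools had 681.9, 599.2 and 276.6 units at ZT6 and 335.8, 3864 and 3525 at ZT20, against 6422 to 7857 in all 6 control pools. The libraries labelled cKO ZT20 2 and 3 therefore go part way against their label in both tissues. Most counts of members and main values that use them are given with and without them. Counts of calls shared between genotypes and of genes outside the members are given with all pools only. Pool 3 of both pineal ZT6 groups also had high signal of the rod gene Gnat1 (3510 and 2195 units, against 72.8 to 1148 in the other 4 ZT6 pools), and is treated in the same way. The deposited arrays had medians of 107.1 to 158.8 units (pineal gland) and 107.8 to 183.1 units (retina), and the values below are quantile normalised over all arrays.

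Of the 56 genes, 50 were bright enough to test in each tissue and 53 in fits across tissues. Sv2c, Syt8 and Syt10 were too dim for any test. Stx11, Syt6 and Vamp5 were too dim in the retina alone, and Stx19, Syt5 and Syt16 in the pineal gland alone. A gene passed a test when its adjusted p was under 0.05, and differences are of log2(signal + 16) with their standard error.

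The largest differences lay between the tissues. Control retina and control pineal gland, averaged over the times, differed in 44 of 53 members, 25 higher in retina and 19 higher in pineal gland. The same held for 79.7% of all genes tested (37.2% higher and 42.4% lower in retina), so the share of 83.0% is near the background, and the median size of the difference was 0.71 among members against 0.53 over all genes. Syt5, Syt6, Syt16, Stx11, Stx19 and Vamp5 entered this fit only through the tissue where they are bright, so they had to differ and are described without a test. Of the 47 members bright enough in each tissue, 38 passed (80.9%), 22 higher and 16 lower, beside 76.6% of 10820 such genes. With signals as deposited the split was 20 higher and 25 lower, and the median of all genes shifted from -0.04 to -0.27. The share of all genes in that setting is not given, so this split shows only a dependence on the scaling.

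Among members higher in retina, Sv2a, an SV2 glycoprotein, had 4480 to 5481 units in the 6 control retina pools and 370.8 to 517.5 in the 6 control pineal pools, a difference of 3.50 ± 0.09 (adjusted p = 2.1e-19). Syt7, a calcium sensor of asynchronous release, had 814.1 to 1273 units in retina and 109.8 to 212.3 in pineal gland (2.68 ± 0.16, adjusted p = 7e-13). Syt16 had 213.9 to 291.8 units in retina against 2.546 to 9.971 in pineal gland, and Syt5 had 174.4 to 374.3 against 4.479 to 26.48. None of these ranges overlapped, and the pineal signals of Syt5 and Syt16 lay too low to give the size of the difference. Both complexins were also higher in retina, Cplx1 by 1.75 ± 0.08 and Cplx2 by 1.80 ± 0.10, as were Stxbp6 (1.87), Stxbp2 (1.76), Syt13 (1.74), Syt11 (1.68), Sv2b (1.55), Syn3 (1.54), Syt1 (1.49), Syt14 (1.31), Stxbp5l (1.05), Vamp4 (0.74), Syt3 (0.71) and Snap91 (0.42).

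Other members were higher in the pineal gland. Syt6 had 336.3 to 852.6 units in control pineal gland and only 33.61 to 53.71, too dim to test, in control retina. Stx4a, a plasma membrane syntaxin of regulated exocytosis outside synapses, had 1929 to 2645 units in pineal gland against 493.2 to 669.4 in retina (-1.94 ± 0.08, adjusted p = 5.5e-16). Stx11 had 110.1 to 196.4 units against a dim 16.73 to 43.05, and Stx18, a syntaxin of the endoplasmic reticulum, 2000 to 2266 against 710 to 769.9 units (-1.52 ± 0.06). In all 4 genes every pineal pool was above every retina pool. Snap23 (-1.19) and Vamp8 (-1.09), SNAREs known from non-neuronal cells, Syt12 (-0.85), Stx6 (-0.73), Stxbp4 (-0.68), Stx7 (-0.63), Syt4 (-0.44), Stx2 (-0.41), Syn2 (-0.40), Snap29 (-0.31), Vamp3 (-0.29), Stx8 (-0.27), Stx16 (-0.24) and Vamp7 (-0.24) were also higher in pineal gland.

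Snap25, the SNARE of the plasma membrane side at synapses, was 0.17 ± 0.04 higher in retina, Stx3 0.36 ± 0.03, the syntaxin Stx1a 0.49 ± 0.10, Vamp1 0.45 ± 0.09, the synapsin Syn1 0.29 ± 0.07 and the Sec1/Munc18 protein Stxbp3 0.27 ± 0.07, and of these all but Stx3 no longer passed with signals as deposited. Vamp2, the main VAMP of synapses, had 8272 to 9441 units in control retina and 8367 to 9413 in control pineal gland. Its difference was -0.04 with a 95% interval of -0.11 to 0.03. Syt2 (-0.05), Syt9 (-0.15), Syt17 (0.26), Stx5a (0.07), Stx12 (-0.05), Stx17 (-0.16), Snap47 (-0.10) and Stxbp5 (0.01) did not pass either. With the replicate number as a block, Stx2, Stx8 and Stxbp3 did not pass.

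**Figure D1:**
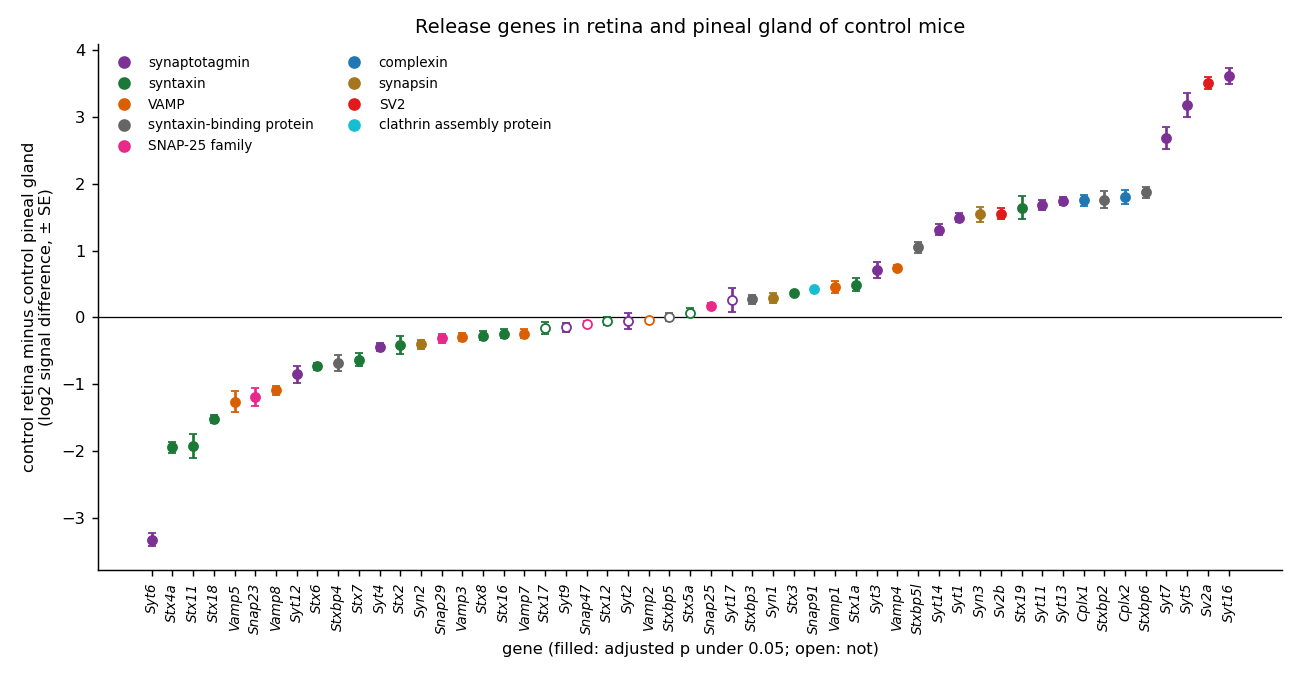
Log2 difference between control retina and control pineal gland (vertical axis, ± SE, averaged over ZT6 and ZT20, 6 pools a tissue) for the 53 members tested, ordered along the horizontal axis and coloured by family. Stx4a and Stx18 sit far below 0 and Sv2a and Syt7 far above, Vamp2, Syt2 and Stxbp5 sit next to 0, and Syt6, Stx11, Vamp5, Stx19, Syt5 and Syt16 are too dim in 1 tissue for their height to be read as a size.

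In control pineal glands 13 of 50 members (26%) differed between ZT20 and ZT6, 6 higher and 7 lower at night, beside 25.8% of all genes tested (12.3% higher and 13.5% lower). They comprised synaptotagmins (3 higher and 4 lower of 12 tested), synapsins (2 of 3 higher) 1 of 2 SV2 genes (lower), 2 of 13 syntaxins and 1 of 7 VAMP genes. Among the core genes that did not pass, Snap25 was at -0.01 (95% interval -0.10 to 0.07), Stx1a at 0.28 (-0.03 to 0.58), Stx3 at -0.10 (-0.20 to 0.00), Vamp1 at 0.09 (-0.18 to 0.36), Vamp2 at 0.11 (0.03 to 0.19, adjusted p = 0.051), Cplx1 at 0.00, Cplx2 at 0.09 and Sv2a at -0.18. With signals as deposited 4 members passed, 2 in each direction, and with array medians centred 7 passed, 4 higher and 3 lower. Shares of all genes under these scalings are not given, and the counts are not read as results about the members.

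Sv2b and Syt6 had the largest falls. Sv2b, whose product is the SV2 form of photoreceptor terminals, had 4291, 3885 and 3529 units in control pools at ZT6 and 1566, 2253 and 1620 at ZT20. It fell by 1.11 ± 0.13 on the log2 scale (adjusted p = 7.2e-05). Syt6 had 852.6, 824.9 and 805.9 units by day and 336.3, 427.1 and 366.7 at night, and fell by 1.11 ± 0.11 (adjusted p = 1.2e-05). For both genes every night pool lay below every day pool. A second Sv2b probe set gave -0.86, whereas the other sets of Syt6 were never above the array median and give no check.

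Syt4 and Syn2 had the largest rises. Syt4, a synaptotagmin known from dense-core vesicles and as an activity-regulated gene, had 3261, 3637 and 3665 units by day and 6930, 5284 and 6434 at night. It rose by 0.81 ± 0.08 (adjusted p = 2.1e-05), and a second probe set gave 0.52. Syn2, which tethers vesicles, had 3062, 3184 and 3356 units by day and 5874, 4388 and 5816 at night and rose by 0.73 ± 0.09 (adjusted p = 7.4e-05). Day and night pools of both genes did not overlap, and 4 other Syn2 probe sets gave 0.99 to 1.11.

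The calcium sensors Syt1 and Syt2 fell. Syt1 had 3079, 2532 and 2339 units at ZT6 and 1907, 1842 and 2054 at ZT20 (-0.44 ± 0.12, adjusted p = 0.015), and 3 other probe sets gave -0.76 to -0.49. Syt2 had 349.3, 283 and 389.6 units at ZT6 and 182.4, 277.1 and 238.7 at ZT20 (-0.53 ± 0.15, adjusted p = 0.019), with other sets at -0.64 to -0.31. Day and night pools of Syt1 did not overlap, nor did those of Syt2, where the nearest were 283 by day and 277.1 at night. Smaller falls that passed were those of Vamp7 (-0.32), a SNARE of late endosomes and lysosomes, Stx8 (-0.27) and Syt9 (-0.27). Syt11 rose with 532.6, 581.7 and 689.4 units by day and 882.7, 747.3 and 815.5 at night (0.43 ± 0.13, adjusted p = 0.023). Syt13 rose with 904.3, 834.9 and 979.6 units by day and 1289, 1004 and 1258 at night (0.37 ± 0.10, adjusted p = 0.015). Syn1 (0.28) and Stx4a (0.26) rose as well.

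Sv2b, Syt6, Syt4 and Syn2 passed under every alternative run, and the other 9 calls were each lost when some single pool was left out. With fewer pools a call can be lost at an unchanged size, as that of Syt11 was without ZT20 pool 3 (0.43). Without control ZT6 pool 1, the 5 genes Sv2b, Syt6, Syt4, Syn2 and Syt13 still passed and 8 did not, at differences of 0.22 to 0.50 in size. Without control ZT20 pool 1, 7 passed, and the 6 that did not (Stx8, Syn1, Syt2, Syt9, Syt11 and Syt13) had sizes of 0.17 to 0.38. Without ZT6 pool 2, Stx8 (-0.26), Syt9 (-0.23), Syt11 (0.41) and Syt13 (0.32) did not pass, and without ZT20 pool 3, Stx4a (0.20), Syn1 (0.23), Syt11 (0.43) and Syt13 (0.33). ZT20 pool 2 ended the call of Syt9 (-0.25).

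In cKO glands 10 of 50 members (20%) differed between night and day, 5 higher and 5 lower, beside 18.1% of all genes (8.4% higher and 9.74% lower). Sv2b, Syt6, Syt4 and Syn2 again had the largest changes. Sv2b had 4319, 3909 and 5383 units at ZT6 and 1956, 1779 and 1991 at ZT20 (-1.23 ± 0.13, adjusted p = 3.1e-05). Syt6 had 661.8, 696.1 and 595.9 by day and 421.1, 364.4 and 369.6 at night (-0.73 ± 0.11, adjusted p = 0.00031). Syt4 had 3374, 3262 and 3576 by day and 7228, 6862 and 6614 at night (1.02 ± 0.08, adjusted p = 2.6e-06). Syn2 had 3247, 3181 and 3274 by day and 5433, 5215 and 5373 at night (0.72 ± 0.09, adjusted p = 7.9e-05). No day pool of these 4 genes reached into the night range.

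Syt2 fell from 412, 469.2 and 421.6 units to 261.8, 282.2 and 290.2 (-0.61 ± 0.15, adjusted p = 0.011), and Syt1 from 2954, 2598 and 3427 to 2470, 1874 and 2241 (-0.44 ± 0.12, adjusted p = 0.02). Syt9 fell by 0.34. Vamp1 had 1047, 1286 and 857 units by day and 1442, 1246 and 1484 at night (0.40 ± 0.13, adjusted p = 0.041), and its pools overlapped. Stx4a had 2123, 2208 and 2066 units by day and 2561, 2658 and 2617 at night (0.29 ± 0.07, adjusted p = 0.01). Vamp4 rose by 0.23 with an adjusted p of 0.045. The split was 2 higher and 5 lower with signals as deposited and with centred medians, given without the share of all genes and not read as a result about the members.

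Without ZT20 pools 2 and 3, which kept Neurod1 signal, 4 members passed: Sv2b (-1.19), Syt6 (-0.61), Syt4 (1.08) and Syn2 (0.75). With fewer pools the other 6 no longer passed at Syt2 -0.69, Syt9 -0.39, Vamp1 0.45, Vamp4 0.29, Stx4a 0.26 and Syt1 -0.27, of which Syt1 alone moved by over 1.5 times. Without the Gnat1-high ZT6 pool, 8 passed, with Syt1 (-0.34), Vamp1 (0.25) and Vamp4 (0.25) lost and Syt11 gained. Syt1, Vamp1 and Vamp4 each lost the call with 3 or more of the single pools left out, among them ZT6 pools 1 and 3. In control glands 12 members passed without the Gnat1-high pool, and the changes were then -1.18 for Sv2b, -1.13 for Syt6, 0.84 for Syt4 and 0.76 for Syn2. Syn1 (0.21) and Syt2 (-0.43) no longer passed there, and Vamp2 did.

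Genotypes were compared directly. With all pools, 8 members passed in the same direction in both genotypes, which is 61.5% of the 13 in controls and 80.0% of the 10 in cKO glands. Over all genes 48.0% and 68.2% were shared. The difference between the night changes of cKO and control glands passed limma's test for 0 members and for 0 of 11984 genes, and 3 members had an unadjusted p under 0.05. For Sv2b the genotype difference was -0.12 (95% interval -0.52 to 0.29), for Syt4 0.21 (-0.05 to 0.46) and for Syn2 -0.01 (-0.27 to 0.26). It was 0.38 for Syt6 with a 95% interval of 0.05 to 0.70 (adjusted p = 0.46), and for Syt1 it was 0.00 (-0.37 to 0.36). Without the ZT20 pools that kept Neurod1 signal the differences were -0.08 for Sv2b, 0.27 for Syt4, 0.02 for Syn2, 0.5 for Syt6 (adjusted p = 0.33) and 0.18 for Syt1.

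**Figure D2:**
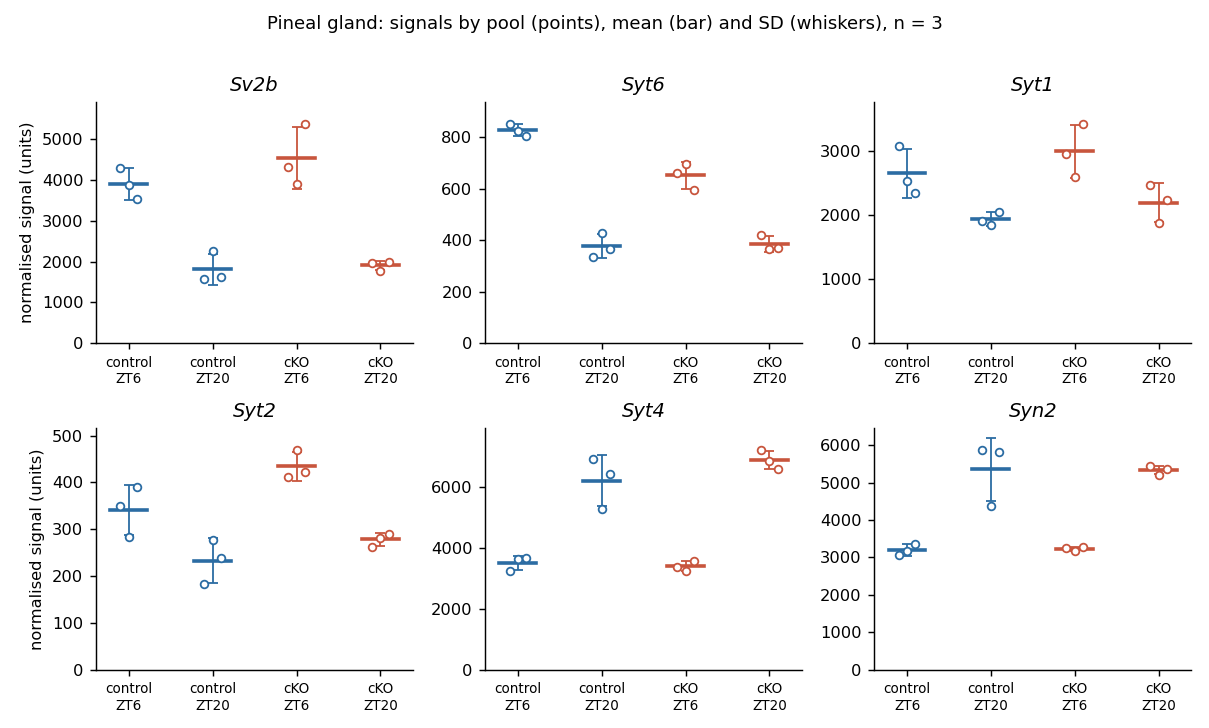
Normalised signal of 6 members in the pineal gland (vertical axes, units, starting at 0) for control (blue) and cKO (red) at ZT6 and ZT20, with each pool as a point, the mean as a bar and the SD as whiskers. Sv2b and Syt6 drop at night in both genotypes, and Syt4 and Syn2 rise, with no overlap of day and night pools.

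Markers of other cells were read beside these changes. Summed over 14 rod genes, control pineal pools had 31520 to 41520 units at ZT6 and 25950 to 27320 at ZT20, and 5 of 12 tested rod genes were lower at night in each genotype. Summed over 12 bipolar cell genes they had 19920 to 20950 and 15940 to 16870 units, with 3 of 8 tested genes lower in each genotype. A list of 9 habenula and other brain neuron genes summed to 1661 to 2044 units by day and 1141 to 1271 at night in controls, and to 1599 to 2558 and 1331 to 1623, which overlap, in cKO glands. Ganglion cell genes (11) summed to 10220 to 10690 by day and 11590 to 11820 at night in controls, with 3 of 6 tested higher and 1 lower, and to 10320 to 11620 and 11140 to 12250 in cKO glands, with 1 higher and 1 lower. Rod and bipolar genes are partly expressed by pinealocytes too. The part of such cells in the night changes of Sv2b, Syt1, Syt2, Syt6, Syt4 and Syn2 was not tested, and without the Gnat1-high pools the cKO changes were -1.10 for Sv2b and -0.8 for Syt6.

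Upstream sequence is shown for 4 of the genes with a night change in the pineal gland, since a common short motif would be the first thing to look for. The 250 bases before the start are from the RefSeq promoter table (GRCm38.p6), read 5′ to 3′ along the gene at the start furthest upstream, with motif matches in capitals.
Sv2b (chr7:75309263-75309512, minus strand): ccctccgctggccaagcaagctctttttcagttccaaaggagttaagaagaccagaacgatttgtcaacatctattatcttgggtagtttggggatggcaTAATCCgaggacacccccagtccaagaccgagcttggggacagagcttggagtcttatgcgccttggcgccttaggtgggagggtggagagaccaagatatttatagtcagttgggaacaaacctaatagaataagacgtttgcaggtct
Syt6 (chr3:103574995-103575244, plus strand): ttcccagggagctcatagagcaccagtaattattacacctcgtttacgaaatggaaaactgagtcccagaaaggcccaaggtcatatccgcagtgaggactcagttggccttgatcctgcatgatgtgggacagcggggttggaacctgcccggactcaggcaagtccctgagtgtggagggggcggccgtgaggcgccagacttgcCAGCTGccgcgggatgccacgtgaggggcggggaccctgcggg
Syt2 (chr1:134646362-134646611, plus strand): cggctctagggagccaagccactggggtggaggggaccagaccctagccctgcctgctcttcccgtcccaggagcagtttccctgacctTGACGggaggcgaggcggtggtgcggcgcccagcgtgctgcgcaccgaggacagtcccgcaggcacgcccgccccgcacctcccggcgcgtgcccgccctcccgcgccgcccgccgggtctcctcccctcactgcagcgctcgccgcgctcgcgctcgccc
Syn2 (chr6:115134652-115134901, plus strand): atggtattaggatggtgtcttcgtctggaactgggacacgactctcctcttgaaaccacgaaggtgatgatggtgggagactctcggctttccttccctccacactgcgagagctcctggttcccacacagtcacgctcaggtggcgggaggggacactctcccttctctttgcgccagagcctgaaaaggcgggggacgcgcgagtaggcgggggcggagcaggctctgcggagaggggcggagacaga
The motifs searched on both strands were the E-box forms CAGATG and CAGCTG, of the kind that bHLH factors such as NEUROD1 bind, the cAMP response element TGACGTCA, its short form TGACG, which overlaps it, and TAATCC, of the kind that CRX binds. Sv2b holds TAATCC, Syt6 holds CAGCTG, Syt2 holds TGACG, and Syn2 holds none, so these 3 genes that fell each hold a different one. Syt1, Syt9 and Stx8, which also fell in controls, hold none in this window. Of 60 listed starts of the 45 members found in the table, 33.3% hold an E-box form, against 25.5% of all 32851 starts. The shares were 3.33% and 1.55% for TGACGTCA, 18.3% and 17.8% for TGACG, and 3.33% and 6.25% for TAATCC. These are matches of letters, not sites. Snap25, Syn3, Syt4, Syt5, Syt7, Syt12, Syt13, Syt17, Vamp2, Vamp3 and Vamp7 are not in the table used.

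In control retina 2 of 50 members (4%) passed between ZT20 and ZT6, 1 higher and 1 lower, beside 1.23% of all genes (0.672% higher and 0.562% lower). Stxbp2, a Sec1/Munc18 protein known from granule secretion, had 1795, 1410 and 1455 units by day and 894.6, 895.4 and 739 at night (-0.87 ± 0.15, adjusted p = 0.019). Syt11 had 2055, 1776 and 2045 units by day and 2594, 2651 and 2651 at night (0.43 ± 0.09, adjusted p = 0.037). Pools of neither gene overlapped, and other probe sets gave -0.88 and -0.59 for Stxbp2 and 0.22 to 0.38 for Syt11. Both calls ended without ZT6 pool 1 (-0.76 and 0.46), ZT20 pool 1 (-0.91 and 0.44) or ZT20 pool 3 (-0.78 and 0.42), and that of Syt11 also without ZT6 pool 2 (0.36) or ZT20 pool 2 (0.42). With signals as deposited neither passed, and with centred medians or the replicate block 1 did. In cKO retina limma called 0 members (5 at an unadjusted p under 0.05) beside 0.332% of all genes (0.136% higher).

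Night changes of control retina and control pineal gland were set against each other, a comparison chosen after the values had been seen. It passed for 6 of 53 members (11.3%) beside 4.26% of all genes (2.05% and 2.21% by direction). For 4 of them the change was more positive in retina, or 2 of 4 with signals as deposited and 3 of 5 with centred medians. Counts under those other scalings are given without the share of all genes. Sv2b had 7579, 7543 and 7943 units in control retina by day and 7767, 7820 and 7798 at night, and the tissues differed by 1.13 ± 0.15 (adjusted p = 9.3e-05). Syn2 had 3171, 3124 and 3503 units by day and 2854, 3202 and 2878 at night in retina (-0.86 ± 0.13, adjusted p = 0.00032). Syt4 had 3381, 3256 and 3358 units by day and 3463, 3579 and 3599 at night there (-0.72 ± 0.12, adjusted p = 0.00066). Within retina the night changes of these 3 genes were 0.02, -0.13 and 0.09 and did not pass. Syt2 had 287, 185.2 and 204.9 units by day and 324.6, 320.4 and 326.5 at night in retina (0.51 ± 0.18, adjusted p = 0.17), without overlap, and its difference between tissues was 1.04 ± 0.24 (adjusted p = 0.015). That call ended without control pineal ZT20 pool 1 (0.89), without the Gnat1-high pools (0.94) and with signals as deposited (1.09), and 2 other Syt2 probe sets gave 0.18 and 0.57. Stxbp5 (tomosyn, which binds syntaxin) had 2538, 3078 and 2627 units by day and 3131, 3285 and 3671 at night in retina, against 3042, 3356 and 3304 and 3002, 2737 and 2692 in pineal gland (0.49 ± 0.12, adjusted p = 0.014), and did not pass under either other scaling. The sixth is Syt6, at 1.21, which entered only through the pineal gland and is too dim in retina (33.61 to 53.71 units) for a night change there to be read. Over the 47 members bright enough in each tissue 5 passed (10.6%), beside 4.58% of such genes. Of 14 rod genes 6 also differed, each with a night change more positive in retina, and their part was not tested.

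**Figure D3:**
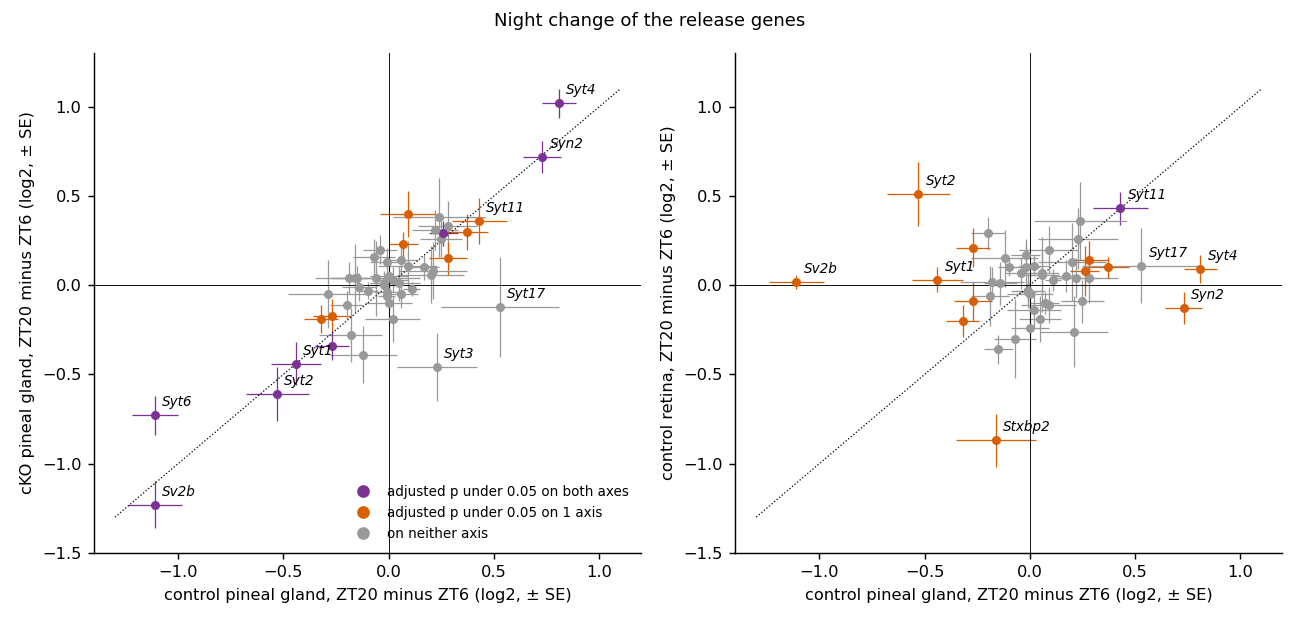
Night change (ZT20 minus ZT6, log2, ± SE) of each member in control pineal gland (horizontal axes) against cKO pineal gland (left) and control retina (right), with the dotted line marking equal change. On the left Sv2b, Syt2, Syt1, Syn2 and Syt4 lie within 0.21 of the line and Syt6 lies 0.38 above it, and on the right Sv2b, Syn2 and Syt4 lie close to 0 on the retina axis.

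In retina at ZT6, 8 of 50 members (16%) differed between cKO and control, 7 higher and 1 lower, beside 16.6% of all genes (9.47% higher and 7.12% lower). By family these were 5 of 13 synaptotagmins and both tested SV2 genes, all higher, and 1 of 6 syntaxin-binding proteins, lower, while 0 of 13 syntaxins, 0 of 6 VAMP genes and 0 of 4 SNAP-25 relatives passed. Signals as deposited gave 11 higher and 0 lower, with the median of all genes shifted by 0.29, and centred medians gave 2 higher and 1 lower. These counts are given without the share of all genes. They show only that the calls depend on the scaling, and are not read as results about the members.

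Syt11 had 2055, 1776 and 2045 units in control pools and 3046, 3405 and 3185 in cKO pools at ZT6 (0.71 ± 0.09, adjusted p = 1.6e-04), and 4 other probe sets gave 0.49 to 0.71. Syt2 had 287, 185.2 and 204.9 units in controls and 459.1, 416.8 and 387.8 in cKO (0.87 ± 0.18, adjusted p = 0.0063), and other sets gave 0.32 and 0.41. Both passed under every alternative run, and no cKO pool overlapped a control pool. Syt4 rose from 3381, 3256 and 3358 to 4489, 4161 and 4329 units (0.37 ± 0.08, adjusted p = 0.0055). Syt13, a synaptotagmin that lacks calcium-binding residues, rose from 3474, 3292 and 3354 to 3978, 4103 and 4115 (0.27 ± 0.06, adjusted p = 0.0095). These 2 passed whichever pool was left out, but not with centred medians, at 0.28 and 0.17.

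The vesicle proteins Sv2a (0.27 ± 0.08, adjusted p = 0.031), Sv2b (0.18 ± 0.04, adjusted p = 0.014) and the calcium sensor Syt1 (0.25 ± 0.07, adjusted p = 0.023) were higher by less. Stxbp2 was lower, with 1795, 1410 and 1455 units in controls and 1038, 1187 and 1097 in cKO (-0.48 ± 0.15, adjusted p = 0.042), and other sets gave -0.63 and -0.55. Calls of Stxbp2, Sv2a, Sv2b and Syt1 ended without control pool 2 (-0.54, 0.18, 0.17 and 0.18) and without cKO pool 1 (-0.43, 0.27, 0.15 and 0.24). Without cKO pool 2, Stxbp2 (-0.53), Sv2a (0.23) and Syt1 (0.22) no longer passed, and Stxbp2 failed also without control pool 1 (-0.37) or cKO pool 3 (-0.47). With centred medians Sv2b was at -0.03, and Sv2a, Syt1 and Stxbp2 no longer passed. With no variance trend Sv2a, Sv2b, Syt1 and Stxbp2 all failed to pass. The call of Sv2a also ended with the replicate block, and that of Stxbp2 with signals as deposited or with no filter on dim genes.

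In retina at ZT20, 1 of 50 members (2%) passed, beside 10.3% of all genes (5.65% higher and 4.68% lower). Neurod1 itself was at -2.19 ± 0.66 in this comparison and did not pass (adjusted p = 0.051 by limma). Syt12 had 128.7, 106.9 and 115.4 units in controls and 269.9, 165.9 and 173.6 in cKO (0.69 ± 0.20, adjusted p = 0.04), with pool 1 highest and no overlap. It no longer passed without that pool (0.49) or without control pool 1 (0.75), 2 (0.64) or 3 (0.69). Nor did Syt12 pass with signals as deposited, with the replicate block or with no filter on dim genes. Without cKO pools 2 and 3, which kept Neurod1 signal, Syt12 differed by 1.11 (adjusted p = 0.02). Syt11 had 2594, 2651 and 2651 units in controls and 3314, 2783 and 2980 in cKO (0.20 ± 0.09, adjusted p = 0.19). Syt2 had 324.6, 320.4 and 326.5 against 569.5, 351 and 393.1 units (0.39 ± 0.18, adjusted p = 0.22). Without cKO pools 2 and 3 these differences were 0.33 for Syt11 (adjusted p = 0.13) and 0.78 for Syt2 (adjusted p = 0.058). The difference between the cKO effects at ZT20 and ZT6 passed for 0 members and 0 genes by limma (5 members at an unadjusted p under 0.05), and for Syt11 it was -0.51 with a 95% interval of -0.78 to -0.25 (adjusted p = 0.44), or -0.38 without those pools (adjusted p = 0.82).

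**Figure D4:**
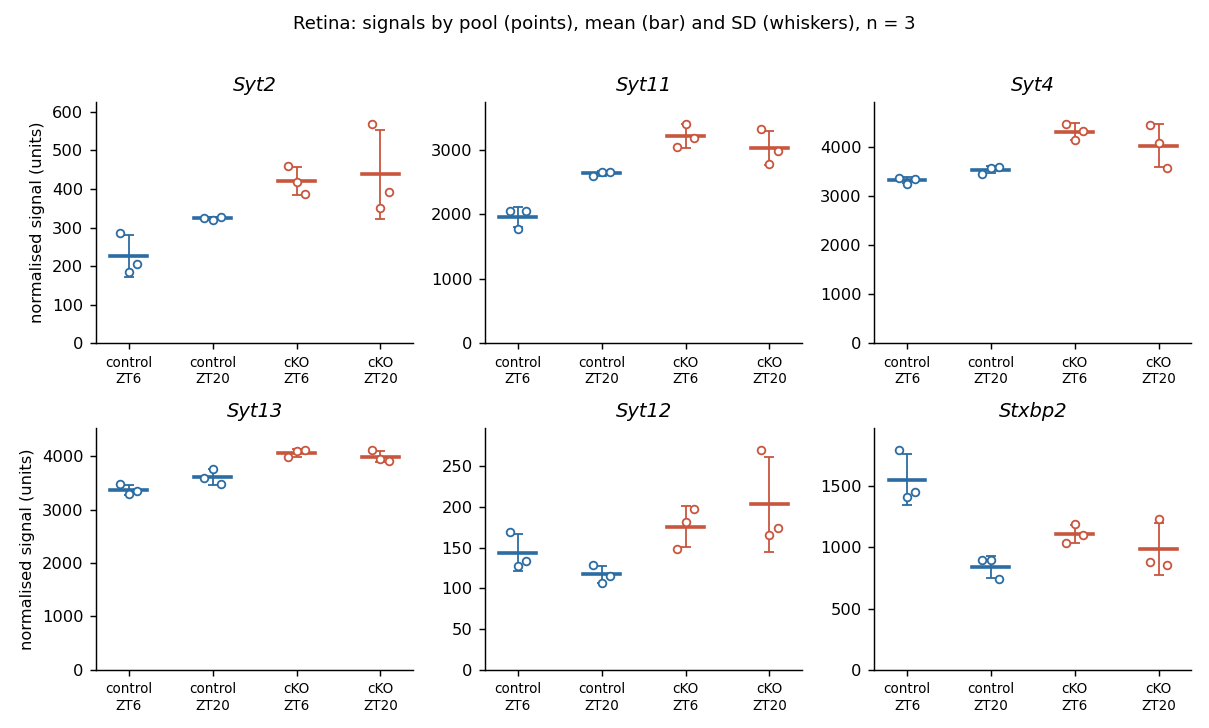
Normalised signal of 6 members in the retina (vertical axes, units, starting at 0) for control (blue) and cKO (red) at ZT6 and ZT20, with pools as points, the mean as a bar and the SD as whiskers. At ZT6 all cKO pools of Syt2, Syt11, Syt4 and Syt13 lie above all control pools and those of Stxbp2 below, while Syt12 separates at ZT20.

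Cell type markers moved in the same retinas. Summed over 10 microglia and macrophage genes, control pools had 2229 to 3307 units at ZT6 and cKO pools 7331 to 9857, and 8 of 8 tested genes were higher at both times. Müller glia genes summed to 48600 to 55750 and 64720 to 65850 units, with 8 of 10 higher at ZT6. Rod genes were lower in 5 of 14 cases at ZT6 and 8 of 14 at ZT20, and cone genes in 5 of 9 at each time, with 2 of 9 cone genes higher at ZT6 and 1 of 9 at ZT20. The part of these shifts in the rises of Syt2, Syt4, Syt11 and Syt13 was not tested.

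Some release genes outside the families gave larger differences than any member in cKO retina. Of 97 tested genes of docking and priming, transmitter loading, endocytosis, SNARE disassembly and other SNAREs, 16 passed at ZT6 (16.5%), 12 higher and 4 lower, and 9 at ZT20 (9.28%), near the shares of 16.6% and 10.3% of all genes. Doc2b, a calcium sensor related to synaptotagmins, had 785.2, 791.3 and 736.7 units in control pools and 86.73, 111.1 and 75.24 in cKO at ZT6 (-2.89 ± 0.25, adjusted p = 1e-05). At ZT20 it had 861.8, 1070 and 929.7 against 108.5, 276.7 and 228.5 (-2.22 ± 0.25, adjusted p = 8.6e-05), and cKO pools 2 and 3, which kept Neurod1 signal, were the higher. Without them Doc2b was at -2.96. Rab3b, a vesicle GTPase, rose from 214.3, 259.9 and 320 to 1168, 2220 and 1282 units at ZT6 (2.44 ± 0.33, adjusted p = 0.00033) and differed by 2.83 at ZT20, or 3.56 without those pools. Cadps2, a priming factor of dense-core vesicles, rose by 1.27 and 1.36 at the 2 times and Lin7b, a scaffold protein, by 1.03 at ZT6. Syp (synaptophysin, a vesicle membrane protein) had differences of -0.18 and -0.26, which both passed. Without the cKO pools that kept Neurod1 signal, the ZT20 differences were 1.39 for Cadps2 and -0.34 for Syp.

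In cKO against control pineal gland at ZT6, 1 of 50 members (2%) passed, beside 1.83% of all genes (0.626% higher and 1.2% lower). Syt13 had 904.3, 834.9 and 979.6 units in controls and 1185, 1287 and 1186 in cKO (0.42 ± 0.10, adjusted p = 0.049), with no overlap, and a second probe set gave 0.39. The call ended with any single pool of the 6 left out, at 0.37 to 0.48, and at 0.50 without the Gnat1-high pools. With the replicate number as a block over all pineal groups, Syt13 (adjusted p = 0.032) and Syt17 (0.88 ± 0.21, adjusted p = 0.036) passed. Same-numbered pools correlated at 0.21 to 0.36 between control and cKO at ZT6. Between control ZT6 and control ZT20 they correlated at -0.19 to 0.12, and between cKO ZT6 and control ZT20 at -0.23 to 0.03. The pools thus do not bear out the block as fitted, and both calls are given as an alternative only. No fit paired the control and cKO ZT6 pools alone. Syt17 had 66.82, 110.5 and 68.42 units in controls and 125.4, 193.3 and 169.8 in cKO. With centred medians, which shift the median of all genes by 0.25, 23 members were higher. That count is given without the share of all genes and is not read as a result about the members. Of 8 listed pinealocyte genes 1 was lower, as were 2 of 10 microglia genes, and 8 choroid plexus genes had a median difference of 0.76 with 0 past the test. Their part was not tested.

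At ZT20 limma called 0 of 50 members and 0 of 11984 genes (0%) in cKO against control pineal gland, and 4 members had an unadjusted p under 0.05. Neurod1 itself, the gene deleted, was at -2.97 ± 0.89 and did not pass (adjusted p = 0.31 by limma). A count of 0 here therefore does not show that no member differed. Differences ranged from -0.33 to 0.35 in synaptotagmins and from -0.17 to 0.21 in syntaxins. With signals as deposited 0 members and 114 genes passed. Without the pools that kept Neurod1 signal 0 members passed.

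Of the core fusion genes, Snap25, Stx3 and Vamp2 had narrow intervals in these 4 genotype comparisons. For Snap25 the cKO difference was -0.08 (95% interval -0.22 to 0.05) in retina at ZT6, 0.01 (-0.12 to 0.15) at ZT20, 0.02 (-0.07 to 0.10) in pineal gland at ZT6 and -0.03 (-0.11 to 0.05) at ZT20. For Stx3 they were -0.07 (-0.18 to 0.04), -0.08 (-0.19 to 0.03), -0.08 (-0.18 to 0.02) and -0.01 (-0.11 to 0.09). For Vamp2 they were 0.15 (0.03 to 0.28, adjusted p = 0.086), 0.06, 0.09 and -0.04. For Cplx1 and Cplx2 in retina at ZT6 the differences were 0.00 and 0.27 (-0.01 to 0.55), and for Syn1 and Syn2 0.04 and -0.07. Without the ZT20 pools that kept Neurod1 signal, the ZT20 differences in retina and pineal gland were 0.02 and 0.05 for Snap25, -0.15 and -0.06 for Stx3, and 0.06 and -0.03 for Vamp2. Snap25 lies among the brightest probe sets, where pools of equal rank receive equal values, such as 14060 in 2 control retina pools at ZT20. Stx1a had wider intervals, -0.31 to 0.28 in retina at ZT6 and -0.45 to 0.16 in pineal gland, and Vamp1 was at -0.35 (-0.62 to -0.08, adjusted p = 0.15) in pineal gland at ZT6.

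The knockout effects of both tissues, averaged over the times, differed for 1 of 53 members (1.89%), beside 15.9% of all genes (8.68% higher and 7.22% lower). Stxbp5l, a tomosyn relative, had 404.5, 514.1 and 506.4 units in control pineal gland at ZT6 and 540.2, 580.7 and 544.6 in cKO, then 577, 504.2 and 585.4 against 661.9, 700.6 and 711.3 at ZT20. In all 12 retina pools it had 913.7 to 1206 units. It had retina differences of -0.09 at ZT6 and -0.06 at ZT20 and pineal differences of 0.23 and 0.31, so that the effect was lower in retina by -0.34 ± 0.11 (adjusted p = 0.032). The value was 0.01 with signals as deposited, where 5 other members were higher. With centred medians 2 members were higher and 22 lower. Counts under other settings in this paragraph are given without the share of all genes, and are not read as results about the members. Without the retina ZT20 pools that kept Neurod1 signal 7 members passed, 4 of them higher, and without those of the pineal gland 0. The call of Stxbp5l ended with 9 of the 24 single pools left out, at -0.34 to -0.29: pineal control ZT6 1 and ZT20 2, pineal cKO ZT6 2 and ZT20 3, retina control ZT6 2, ZT20 2 and ZT20 3, and retina cKO ZT6 3 and ZT20 1. Without the pineal pools that kept Neurod1 signal it was at -0.31 (adjusted p = 0.12).

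The wider release machinery was counted in the same way. Of 92 tested genes in the pineal gland 23 (25.0%) passed between night and day in controls, 14 higher and 9 lower, and 13 (14.1%) in cKO, beside 25.8% and 18.1% of all genes. The active zone genes Rims3 and Unc13a rose. Rims3 had 602.1, 708.9 and 823 units by day and 2367, 1501 and 2303 at night in controls (1.49 ± 0.15, adjusted p = 1.4e-05) and changed by 1.32 in cKO. Unc13a, a priming factor, changed by 0.95 and 0.78, and the vesicle GTPase Rab3d by 0.86 in controls. Ppfia2, a liprin, fell from 773.6, 734.1 and 759.7 to 271.6, 474.8 and 281.8 units (-1.15 ± 0.17, adjusted p = 0.00035), and by 1.15 in cKO. Its relative Ppfia4 rose by 0.72 and 0.99. Without the cKO ZT20 pools that kept Neurod1 signal, the cKO changes were 1.31 for Rims3, 0.8 for Unc13a, -1.3 for Ppfia2 and 0.94 for Ppfia4. Between control retina and control pineal gland 89 of 101 passed (88.1%, beside 79.7% of all genes). This count includes genes that entered only through the tissue where they are bright, and it was not repeated over listed genes bright enough in each tissue. It is not read as a result about the list. Rims1 had 4518 to 5269 units in retina and 8.581 to 83.43 in pineal gland, and Rph3a, a Rab3 effector, 2933 to 3696 and 13.2 to 41.07. Both are too dim in pineal gland, so they had to differ and are described without a test.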

How the data were processed

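Total RNA of 24 pools was amplified, biotin labelled and hybridised to Affymetrix mouse genome arrays, per the labels. For each array the authors deposited 1 intensity per probe set, on a linear scale. The submitters' processing notes name GCOS; version and scaling are not given in the sources used here. Because the deposited arrays share no common scale, signals were quantile normalised over all arrays and 16 units were added before log2. Probe sets with 1 gene symbol in the platform annotation (34945 of 45101) were used. A gene was tested where it lay above the array median on at least 3 arrays of the fit. Each tissue (12 arrays), or both for comparisons across them, was fitted by limma (version 3.58.1, under R 4.3.3) with 1 mean per group, eBayes with a variance trend, and Benjamini-Hochberg adjustment over all genes tested; p-values are two-sided, and intervals are at 95%. The fit was tested on simulated data. With 3 pools against 3, an exact permutation test cannot give a p under 0.1. The number of arrays limits the precision, and no batch was taken from the labels.

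The labels number the pools 1 to 3 in each group. Deviations of same-numbered pools correlated at 0.21 to 0.36 between pineal control and cKO at ZT6, over 0.1 in every pair. The numbers were therefore taken to pair these 2 groups only. No fit paired these 2 groups alone, so the main comparison of pineal cKO with control at ZT6 leaves this pairing unused. Pool 3 of both groups was Gnat1-high, and whether this gave the correlation was not tested. The replicate block was fitted over all groups of a tissue, and so also over groups that the numbers did not pair. Arrays of a group correlated at 0.983 to 0.992. Members, lists, alternatives and the rule on naming were chosen with earlier results of these data known. Neurod1 and every member that passed are named, the 4 largest changes in each direction are given by pool, 12 core genes are followed whatever their change, and up to 4 genes of the wider lists are named in a comparison; Syp, Syt17, Ppfia4 and the further pool values were chosen after being seen. Alternatives were the deposited scale, centred medians, normalisation within tissue, a pseudocount of 1, no filter, no variance trend, probe sets without the suffix _x_at, a replicate block and omission of pools. The count over genes bright enough in each tissue was added after the values had been seen.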

Additional observations from a re-analysis of the deposited data

Results flagged for a closer look

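The cKO effect on Stxbp5l differed between the tissues by an interaction contrast, retina minus pineal gland, of -0.34 ± 0.11 (adjusted p = 0.032 by limma). Night changes of control retina and control pineal gland differed by the same kind of contrast for 6 members, in a comparison chosen after the values had been seen. The differences were 1.13 for Sv2b, 1.21 for Syt6 (too dim in retina for a night change there to be read), 1.04 for Syt2, 0.49 for Stxbp5, -0.86 for Syn2 and -0.72 for Syt4. No group of 3 pools was examined for outlying pools by a test.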

How the results depend on the processing

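The night changes of Sv2b, Syt6, Syn2 and Syt4 in pineal glands of both genotypes, and the ZT6 retina differences of Syt11 and Syt2, passed under every alternative run. Of 1564 recomputed values of 86 calls on single genes, 1407 stayed on the same side, 155 no longer passed and 2 reversed: Sv2b in retina at ZT6 with centred medians (-0.03) and the tissue contrast of Stxbp5l with signals as deposited (0.01). The cause of these 2 reversals was not tested. The 86 calls include the 44 differences between control retina and control pineal gland, most of which passed under every alternative. Among those 44 are Syt5, Syt6, Syt16, Stx11, Stx19 and Vamp5, which had to differ. The pooled count therefore does not measure how stable the genotype and night calls are.

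Numbers of members that passed moved by over 1.5 times as follows. In retina cKO against control at ZT6 (8 members) they were 3 with centred medians and 4 with no variance trend, and 4 to 10 with single pools left out. At ZT20 (1 member) they were 0 with signals as deposited and 0 with a replicate block, and 0 to 2 with pools left out. In pineal cKO against control at ZT6 (1 member) they were 23 with centred medians, 2 with the block, and 0 with signals as deposited, pseudocount 1, no filter, no variance trend, without the Gnat1-high pools and without any single pool (0 to 0). Night changes in control retina (2 members) gave 0 with signals as deposited, 1 with centred medians, no variance trend or the block, and 0 to 2 with pools left out. Night changes in control pineal gland (13 members) gave 4 with signals as deposited, 7 with centred medians and 5 to 12 with pools left out. Those in cKO pineal gland (10 members) gave 4 without the pools that kept Neurod1 signal, where 5 of the 6 lost genes kept sizes of 0.26 to 0.69 with fewer pools, and 7 to 10 with single pools left out. The tissue contrast of the cKO effect (1 member) gave 5 with signals as deposited, 24 with centred medians, 3 with pseudocount 1, 2 with the block, 7 and 0 without the retina and pineal pools that kept Neurod1 signal, and 0 to 4 with single pools left out. Retina against pineal gland (44) ranged from 44 to 46 and its night contrast (6) from 5 to 8 with pools left out. In the other 4 comparisons 0 members passed under every alternative run. These counts are given without the share of all genes in each setting, so they show only how far the calls depend on the processing.

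The replicate block rests on numbers that paired pineal ZT6 pools only. Elsewhere same-numbered deviations correlated at -0.23 to 0.26 in the pineal gland (7 of 15 pairs over 0.1) and -0.52 to 0.40 in the retina (5 of 18). The block there is a number only. Since the block was fitted over all groups of a tissue, this also limits its use for the pineal ZT6 comparison. Signal over background could not be examined, and 3 members were too dim throughout.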
